A study of Mus musculus with 36 samples.

Results

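The transcripts described here are those of 7 genes for transcription factors, which are 3 members of the MAF family (Maf, Mafg and Mafk) and the 4 members of the MiT/TFE family (Mitf, Tfeb, Tfec and Tfe3). The genes were chosen by name from the 40354 genes of the count tables, by a rule that uses no measured value, although earlier results of these data were known when it was written. All 7 passed the low-count filter, so none was left out of a test.

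The data are RNA-seq libraries of mouse B cells on their way to macrophages, a conversion driven by the myeloid factor C/EBPα and referred to as BMT. B cells from the bone marrow of C57BL/6J mice carried a retrovirus for C/EBPα fused to the hormone-binding domain of the estrogen receptor (ER) with hCD4 as a surface tag, and hCD4+ cells were enriched. The factor was wild-type (WT), or had arginine 35 replaced by alanine (R35A) or by lysine (R35K). All groups, the 0 hpi controls included, carried a C/EBPα-ER construct, so no group was free of the virus. The cells sat on inactivated mouse embryo fibroblast (MEF) feeders in medium with IL-7, IL-3, FLT-3, mCSF-1 and mSCF, E2 moved the fusion protein into the nucleus, and feeders were removed by differential adherence. Per the methods, the medium was renewed every 2 days without IL-7, and the part of this in the 120 hpi values was not tested. RNA was taken 0, 1, 3, 6, 18 and 120 hours post induction (hpi). Each of the 18 groups of construct and timepoint has 2 replicates, called biological in the study, which makes 36 libraries. The labels call the cells B cells up to 18 hpi and macrophages at 120 hpi, and the age of the mice was not given in the sources used here. The comparisons ask how each gene changed during BMT and whether that change differed between the 3 forms of C/EBPα.

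MAF proteins are basic leucine zipper factors. Maf (c-MAF) is a large MAF, with an activation domain of its own, and is known in tissue macrophages for genes of the complement, scavenger receptor and IL-10 programs. Mafg and Mafk are small MAFs that lack such a domain, and they act with partners: with NRF2 (Nfe2l2) or NF-E2 (Nfe2) they activate antioxidant and other genes, and with BACH1 or BACH2 they repress them. MiT/TFE proteins are basic helix-loop-helix leucine zipper factors that pair with one another and bind E-boxes, among them the CLEAR element of lysosome genes. Tfeb and Tfe3 are the broadly expressed regulators of lysosomes and autophagy, which mTORC1 keeps in the cytoplasm while nutrients are plentiful, Mitf serves melanocytes, mast cells, osteoclasts and macrophages, and Tfec is largely limited to myeloid cells. The libraries measured mRNA, and neither protein level nor location in the cell can be read from them.

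Upstream sequences are shown first for 3 members, namely the pair of MiT/TFE genes with the largest rises (Tfec and Mitf) and Mafk, the member that changed least by 120 hpi with R35A and R35K. They come from RefSeq on GRCm38.p6, which held starts for 6 of the 7 members (not Maf), and they end at the start of the transcript or up to 20 bases past another transcript's start. Capitals mark matches, on either strand, to CACGTG (an E-box), GGAAGT (a PU.1-type ETS core), TTGCNNAA (a C/EBP element) and TGCTGA (the core of a MAF element). These letters were chosen after the sequences had been seen.
Tfec (chr6:16898442-16898691, minus strand): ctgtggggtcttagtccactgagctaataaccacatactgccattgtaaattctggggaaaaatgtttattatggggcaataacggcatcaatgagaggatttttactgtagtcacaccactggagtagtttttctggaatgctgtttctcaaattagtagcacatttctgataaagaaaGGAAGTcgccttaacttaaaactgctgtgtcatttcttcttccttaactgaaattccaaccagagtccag
Mitf, upstream start (chr6:97806808-97807057, plus strand): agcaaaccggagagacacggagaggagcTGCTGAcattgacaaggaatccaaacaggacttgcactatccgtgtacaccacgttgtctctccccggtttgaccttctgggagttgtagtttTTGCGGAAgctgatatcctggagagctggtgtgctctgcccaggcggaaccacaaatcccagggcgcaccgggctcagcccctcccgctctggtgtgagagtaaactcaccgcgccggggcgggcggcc
Mafk (chr5:139791286-139791532, plus strand): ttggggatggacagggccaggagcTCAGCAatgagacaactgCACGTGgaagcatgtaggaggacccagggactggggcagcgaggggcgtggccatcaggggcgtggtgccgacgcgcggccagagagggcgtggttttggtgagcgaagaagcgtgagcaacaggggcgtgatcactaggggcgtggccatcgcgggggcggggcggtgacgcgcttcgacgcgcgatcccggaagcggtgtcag
Tfec held the ETS core 70 to 65 bases before the start. Mitf held the C/EBP letters 129 to 122 bases and the MAF core 222 to 217 bases before the start. Mafk held the E-box 208 to 203 bases before the start, and the MAF core on the reverse strand (TCAGCA as printed) 226 to 221 bases before it. Among 32851 promoters of the same length, 6.021% held CACGTG, 19.74% GGAAGT, 9.564% TTGCNNAA and 16.08% TGCTGA. Of the starts searched but not printed, the Mitf start at chr6:97929567-97929816 held the MAF core on the reverse strand, and the one at chr6:97991533-97991782 held no match. Mafg held an E-box, a Tfe3 start held the ETS core, and no Tfeb start held a match. The C/EBP letters were found at none of these. A match is a description of letters only.

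On GRCm38 (mm10) with GENCODE vM21, Maf lies at chr8:115682942-115707794 (minus strand), Mafg at chr11:120625117-120633600 (minus), Mafk at chr5:139791513-139802653 (plus), Mitf at chr6:97807052-98021349 (plus), Tfeb at chr17:47737030-47792419 (plus), Tfec at chr6:16833373-16898441 (minus) and Tfe3 at chrX:7762560-7775202 (plus). Their exons cover between 3901 bases (Mafk) and 9261 bases (Tfe3). Small stretches of exon overlap neighbours: 440 bases of Maf with the antisense gene Gm15655, 124 bases of Mafg with Sirt7 on the same strand, and 169 bases of Mafk with Tmem184a on the opposite strand. Counts are per gene, so the transcripts from different starts of Mitf or Tfeb were not told apart.

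Library totals ran from 13044456 to 23131776 counted reads. Levels are given as CPM (counts scaled to library size) with TMM factors over all 36 libraries. The R35K libraries were deposited apart from those of WT and R35A. Wherever R35K levels are set beside the others, construct and set of libraries cannot be told apart. The tests used scaling factors of the libraries fitted (24 for WT and R35A, 12 for R35K), and because of this the log2 ratio of 2 printed levels lay between 0.02 below and 0.13 above the fitted log2 change for the 6 members other than Tfec. The markers of the labelled cells moved as a whole list: the 8 B cell markers summed to 3386 to 3719 CPM at 0 hpi and to 63.7 to 138 CPM at 120 hpi, and the 8 macrophage markers to 61.0 to 68.5 CPM and 19860 to 30805 CPM. Within 1 hpi the macrophage markers reached 881 to 897 CPM with WT, 3840 to 3860 CPM with R35A and 8052 to 8210 CPM with R35K. The 10 fibroblast markers summed to 2087 to 2265 CPM before induction, 3194 to 4146 CPM after 1 hour, 2739 to 5177 CPM after 18 hours and 179 to 635 CPM after 120 hours, so these markers moved with time and construct, and their part in the results was not tested. In such bulk samples fewer cells of a type and less RNA per cell cannot be told apart. Markers of granulocytes, mast cells, T cells, osteoclasts and dendritic cells summed to at most 57.9 CPM in any library, the most for osteoclasts at 1 hpi.

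A gene was called when it changed by at least 1.5-fold with an adjusted p of 0.05 or less (edgeR quasi-likelihood test with Benjamini-Hochberg adjustment over all genes tested), and the 5 timepoints of a construct share its 0 hpi libraries. With WT, 2 of 7 members were called at 1 hpi, 3 hpi and 6 hpi, all up, where 19.9%, 23.5% and 29.8% of all genes were called. All 7 were called at 18 hpi (6 up and 1 down, against 47.1% of all genes) and 7 up at 120 hpi (against 63.3%). With R35A, 5 members were called at 1 hpi (4 up and 1 down, against 37.3% of all genes), 5 up after 3 hours (36.8%), 6 after 6 hours and 6 after 18 hours (each 5 up and 1 down, against 37.7% and 42.6%) and 6 up after 120 hours (63.1%). With R35K, 5 members were called up at each of 1, 3, 6 and 18 hpi (against 32.9%, 32.7%, 34.1% and 39.0% of all genes) and 6 up at 120 hpi (63.8%). The share of members was thus above that of all genes with both mutants from 1 hpi on, and with WT at 18 and 120 hpi, and at 1, 3 and 6 hpi with WT it was close to it. Tfec, called up in each of these comparisons, had 5 to 15 counts per library at 0 hpi and more in every later group. It could hardly be called down against 0 hpi, so these shares are a description only.

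**Figure D1:**
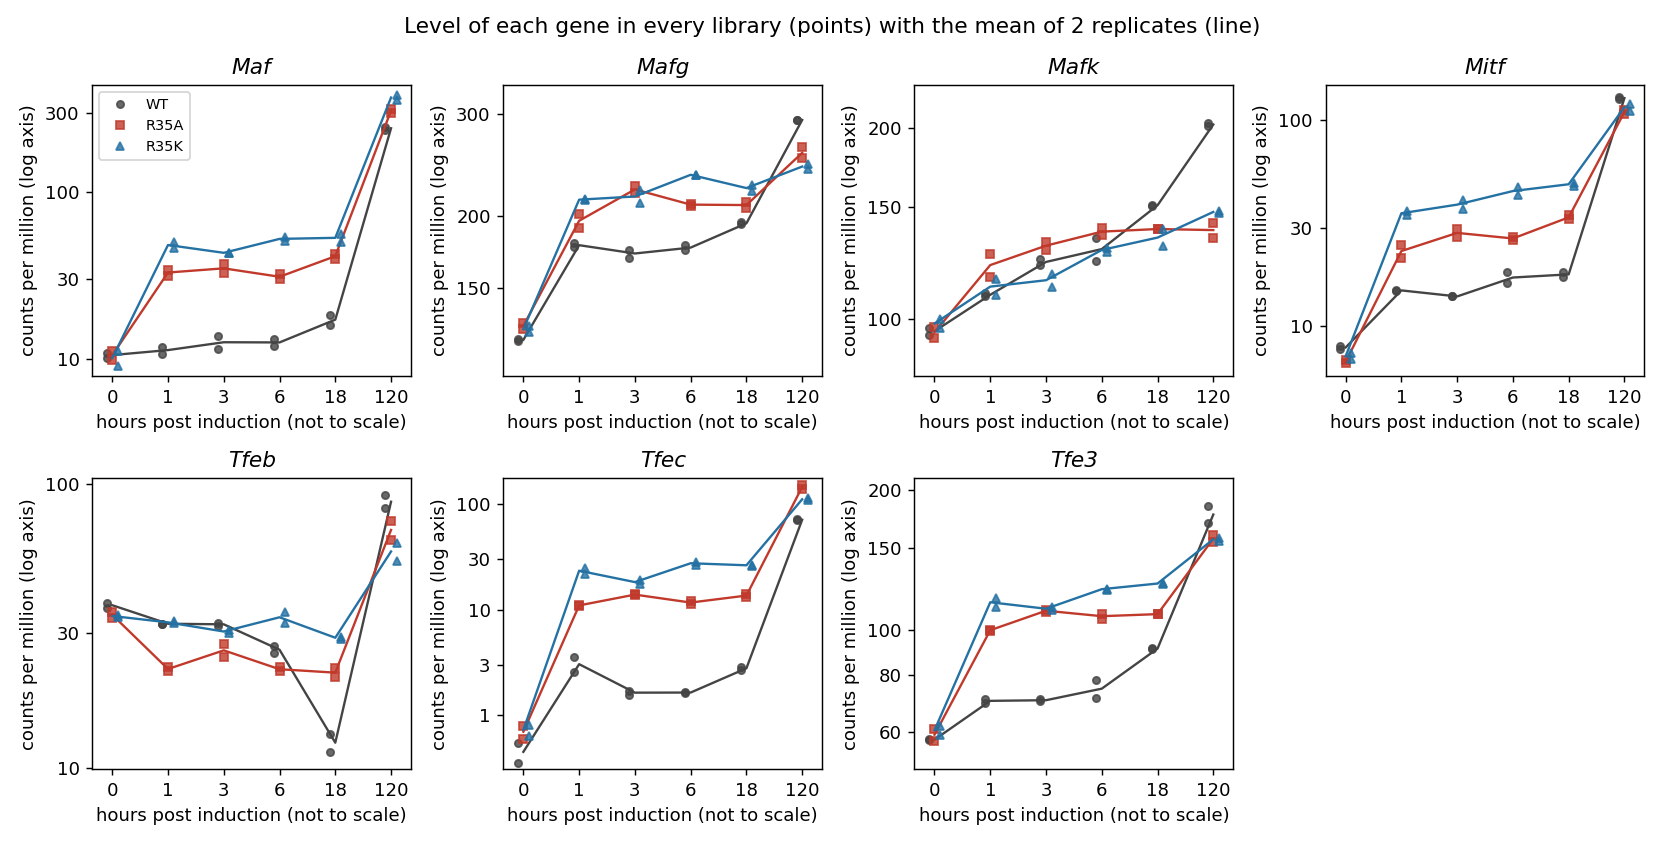
Level in CPM (log axis) of the 7 genes at 0, 1, 3, 6, 18 and 120 hours post induction (axis not to scale) with WT (grey circles), R35A (red squares) and R35K (blue triangles); points are the 2 libraries of a group and lines join the group means. Maf, Mitf, Tfec and Tfe3 stand in the order WT, R35A, R35K at 1, 6 and 18 hpi and lie closer together at 120 hpi, Tfeb dips at 18 hpi with WT to 12.3 CPM, and Mafk parts most at 120 hpi.

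Maf, the large MAF, was low and alike in all constructs before induction and rose late with WT and within the first hour with both mutants. With WT its 2 libraries held 10.9 and 10.2 CPM at 0 hpi, 11.8 and 10.8 at 1 hpi, 13.7 and 11.5 at 3 hpi, 11.9 and 13.2 at 6 hpi, 16.1 and 18.3 at 18 hpi, and 237 and 248 at 120 hpi. With R35A they held 11.1 and 9.90 CPM at 0 hpi, 34.4 and 31.6 at 1 hpi, 37.2 and 32.8 at 3 hpi, 32.3 and 30.0 at 6 hpi, 42.7 and 40.1 at 18 hpi, and 318 and 301 at 120 hpi. With R35K they held 11.1 and 9.08 CPM at 0 hpi, 46.3 and 50.3 at 1 hpi, 43.3 and 43.4 at 3 hpi, 50.9 and 54.2 at 6 hpi, 50.6 and 56.1 at 18 hpi, and 358 and 384 at 120 hpi. The WT libraries of 0 and 1 hpi overlap, while the lowest mutant library at 1 hpi lies above each WT library up to 18 hpi. In the test, the WT change was 0.12 ± 0.11 on the log2 scale at 1 hpi (SE, n = 2 per group, edgeR adjusted p = 0.416), a first call came at 18 hpi (0.71 ± 0.10, adjusted p = 4.19e-08), and at 120 hpi the level was 21.03-fold that of 0 hpi (4.39 ± 0.07, adjusted p = 1.57e-45). With R35A the gene was 3.11-fold up at 1 hpi (1.64 ± 0.09, edgeR adjusted p = 1.35e-22, n = 2) and 27.2-fold at 120 hpi, and with R35K 4.59-fold (2.20 ± 0.08, adjusted p = 6.77e-22) and 34.1-fold. Of the log2 change reached by 120 hpi, Maf had therefore made 2.65% at 1 hpi with WT, 34.3% with R35A and 43.2% with R35K.

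Mafg, a small MAF, was already well expressed in the B cells and stepped up at once with every construct. Its mean level with WT was 122 ± 0.801 CPM before induction, 178 ± 2.23 after 1 hour, 194 ± 1.16 after 18 hours and 293 ± 0.0474 after 120 hours (SD, n = 2). With R35A it was 129 ± 2.08 CPM before induction, 196 ± 7.59 after 1 hour, 222 ± 4.54 after 3 hours and 257 ± 8.01 after 120 hours, and with R35K 127 ± 2.18, 213 ± 0.626, 216 ± 7.59 and 243 ± 3.46 at the same timepoints. No library after induction overlapped those of 0 hpi. The step at 1 hpi was 1.48-fold with WT (log2 0.57 ± 0.04, edgeR adjusted p = 2.30e-18, n = 2) and 1.497-fold with R35A (0.58 ± 0.04, adjusted p = 8.79e-20), both just short of the call, and 1.62-fold with R35K (0.69 ± 0.04, adjusted p = 5.98e-17). The R35A value at 1 hpi passed the threshold at 0.60 to 0.67 under 8 of the alternatives tried, among them the fits without R35A replicate 1 of 0 hpi and without R35A replicate 1 of 1 hpi. By 120 hpi the gene was 2.20-fold up with WT, 1.83-fold with R35A and 1.78-fold with R35K.

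Mafk, the other small MAF, climbed slowly with WT, levelled off with R35A and went on rising with R35K, to a lower level than with WT. Its WT mean was 95.5 ± 1.68 CPM before induction, 109 ± 0.808 after 1 hour, 123 ± 2.12 after 3, 129 ± 7.80 after 6, 151 ± 0.277 after 18 and 203 ± 1.17 after 120 hours (SD, n = 2). The R35A libraries held 96.9 and 93.3 CPM at 0 hpi, 139 and 138 at 18 hpi and 142 and 134 at 120 hpi, and those of R35K 96.6 and 99.8, 130.1 and 138, and 147 and 148. The R35A libraries of 18 and 120 hpi overlap, and both lie below every WT library of 120 hpi. Mafk was called with WT at 18 hpi (1.58-fold, log2 0.66 ± 0.04, edgeR adjusted p = 2.50e-19, n = 2) and 120 hpi (1.94-fold, 0.96 ± 0.04, adjusted p = 4.72e-26). At 120 hpi it stood at 1.33-fold with R35A (0.41 ± 0.04, adjusted p = 3.13e-12) and 1.40-fold with R35K (0.49 ± 0.05, adjusted p = 8.20e-12), neither called. The R35A value passed the fold threshold at 0.61 with only the groups compared, and the R35K value at 0.59 to 0.67 under 4 alternatives.

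Mitf, known from melanocytes, osteoclasts and macrophages, rose with all constructs from the first hour. It is one of the macrophage signature genes that the study itself used, so its rise during BMT is not independent evidence of direction. With WT the 2 libraries held 7.75 and 7.98 CPM at 0 hpi, 14.8 and 14.9 at 1 hpi, 13.9 and 13.9 at 3 hpi, 16.2 and 18.18 at 6 hpi, 17.3 and 18.3 at 18 hpi and 127 and 128 at 120 hpi. With R35A they held 6.58 and 6.81 CPM at 0 hpi, 24.8 and 21.3 at 1 hpi, 29.6 and 26.9 at 3 hpi, 26.9 and 26.2 at 6 hpi, 34.4 and 32.8 at 18 hpi and 111 and 107 at 120 hpi. With R35K they held 7.37 and 6.87 CPM at 0 hpi, 34.4 and 35.98 at 1 hpi, 40.6 and 36.9 at 3 hpi, 43.2 and 47.1 at 6 hpi, 47.8 and 49.5 at 18 hpi and 111 and 119 at 120 hpi. From 1 to 18 hpi the libraries of the 3 constructs did not overlap, in the order WT, R35A, R35K, and at 120 hpi WT was the highest. The rise at 1 hpi was 1.92-fold with WT (log2 0.94 ± 0.11, edgeR adjusted p = 1.38e-10, n = 2), 3.39-fold with R35A (1.76 ± 0.10, adjusted p = 5.30e-22) and 4.76-fold with R35K (2.25 ± 0.09, adjusted p = 7.37e-21). At 120 hpi the 3 rises were 14.8-fold, 14.9-fold and 15.1-fold. The share of the whole log2 change made by 1 hpi was 24.2% with WT, 45.1% with R35A and 57.5% with R35K.

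Tfec, the myeloid member, showed the largest fold changes of the 7 genes at every timepoint, from counts close to the limit of detection. Before induction its counts were 8 and 5 with WT, 9 and 15 with R35A, and 11 and 13 with R35K, so folds against 0 hpi rest on few reads. In CPM the WT libraries held 0.549 and 0.356 at 0 hpi, 2.56 and 3.55 at 1 hpi, 1.72 and 1.57 at 3 hpi, 1.64 and 1.66 at 6 hpi, 2.87 and 2.72 at 18 hpi, and 72.2 and 70.2 at 120 hpi. The R35A libraries held 0.604 and 0.799 CPM at 0 hpi, 11.2 and 10.8 at 1 hpi, 14.2 and 13.7 at 3 hpi, 12.0 and 11.4 at 6 hpi, 14.1 and 13.1 at 18 hpi, and 138 and 153 at 120 hpi. With WT the gene stayed in the low units up to 18 hpi, and with R35A it held a plateau several times as high from 1 hpi. The R35K libraries held 0.638 and 0.820 CPM at 0 hpi, 24.9 and 22.0 at 1 hpi, 17.6 and 19.0 at 3 hpi, 28.5 and 26.6 at 6 hpi, 26.8 and 26.0 at 18 hpi, and 109 and 114 at 120 hpi. The rise at 1 hpi was 6.80-fold with WT (log2 2.77 ± 0.31, edgeR adjusted p = 7.28e-11, n = 2), 15.0-fold with R35A (3.91 ± 0.19, adjusted p = 6.71e-24) and 30.8-fold with R35K (4.95 ± 0.16, adjusted p = 1.25e-23). At 120 hpi it was 141-fold with WT (7.14 ± 0.16), 186-fold with R35A (7.54 ± 0.12) and 142-fold with R35K (7.14 ± 0.12).

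Tfeb, a lysosome regulator, was the member that went down before it went up. The WT libraries held 38.3 and 36.6 CPM at 0 hpi, 32.3 and 32.2 at 1 hpi, 31.7 and 32.5 at 3 hpi, 25.4 and 26.8 at 6 hpi, 11.4 and 13.2 at 18 hpi, and 91.0 and 82.0 at 120 hpi. The R35A libraries held 35.4 and 33.9 CPM at 0 hpi, 22.7 and 22.0 at 1 hpi, 24.6 and 27.4 at 3 hpi, 22.6 and 22.0 at 6 hpi, 22.5 and 20.9 at 18 hpi, and 74.0 and 63.7 at 120 hpi. The R35K libraries held 34.6 and 34.0 CPM at 0 hpi, 32.8 and 32.3 at 1 hpi, 29.9 and 30.6 at 3 hpi, 35.5 and 32.4 at 6 hpi, 28.5 and 29.0 at 18 hpi, and 62.1 and 53.6 at 120 hpi. The WT trough at 18 hpi lies below every other library, and the R35K libraries of 6 hpi overlap those of 0 hpi. Tfeb fell 3.04-fold with WT by 18 hpi (log2 -1.60 ± 0.09, edgeR adjusted p = 2.33e-22, n = 2). With R35A it was 1.57-fold down at 1 hpi and at 6 hpi (-0.65 ± 0.08 each, adjusted p = 1.28e-10 and 9.12e-11) and 1.62-fold down at 18 hpi. The calls at 1 and 6 hpi were lost, at -0.57 to -0.58, with DESeq2, with its size factors and with limma. With R35K no fall was called, the value at 18 hpi being -0.30 ± 0.07 (adjusted p = 0.000448). All constructs ended above their 0 hpi level, at 2.12-fold with WT (1.08 ± 0.07, edgeR adjusted p = 3.59e-20), 1.82-fold with R35A and 1.57-fold with R35K.

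Tfe3, the other broadly expressed lysosome regulator, rose by less than 3-fold and early with the mutants. Its mean was 57.9 ± 0.221 CPM before induction, 70.2 ± 1.07 after 1 hour, 91.0 ± 0.579 after 18 and 177 ± 10.4 after 120 hours with WT (SD, n = 2). With R35A it was 59.3 ± 2.61, 99.7 ± 0.469, 108 ± 0.00690 and 157 ± 4.14 CPM at these timepoints, and with R35K 60.7 ± 1.80, 114.5 ± 3.47, 126 ± 0.781 and 157 ± 1.54 CPM. Each mutant library at 1 hpi lay above each WT library of 18 hpi. The change at 1 hpi was 1.23-fold with WT (log2 0.30 ± 0.05, edgeR adjusted p = 1.21e-06, n = 2, not called), 1.66-fold with R35A (0.73 ± 0.05, adjusted p = 1.09e-19) and 1.82-fold with R35K (0.86 ± 0.04, adjusted p = 3.41e-18). WT reached a call at 18 hpi (1.57-fold, 0.65 ± 0.05), and at 120 hpi the 3 constructs stood at 2.80-fold, 2.43-fold and 2.41-fold. By 1 hpi Tfe3 had made 20.1% of its log2 change with WT, 56.7% with R35A and 68.2% with R35K.

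R35A was then compared with WT at the same timepoint, which sets the alanine mutant beside the wild-type factor. At 0 hpi 0 members were called with edgeR, as for all genes (0%), with 1 member (Mafg, log2 0.08 ± 0.04) at an unadjusted p under 0.05 and 261 of all genes past the fold at an unadjusted p, and DESeq2 also called 0. The share of members called rose to 3 of 7 after 1 hour (19.3% of all genes), 4 after 3 hours (17.0%), 3 after 6 hours (13.7%) and 4 after 18 hours (10.1%), all of them higher with R35A, and was 1 after 120 hours (18.8%). Maf was 2.85-fold higher with R35A at 1 hpi (log2 1.51 ± 0.09, edgeR adjusted p = 7.21e-21, n = 2 per group), 2.37-fold at 18 hpi (1.24 ± 0.08, adjusted p = 1.47e-19) and 1.28-fold at 120 hpi (0.36 ± 0.05, adjusted p = 3.13e-09, not called). Tfec was 3.45-fold higher at 1 hpi (1.79 ± 0.14, adjusted p = 9.19e-16), 8.32-fold after 3 hours (3.06 ± 0.16), 7.07-fold after 6, 4.81-fold after 18 and 2.06-fold after 120 hours (1.04 ± 0.06, adjusted p = 3.04e-20), the one member called at 120 hpi. Mitf was 1.51-fold higher at 1 hpi (0.59 ± 0.08, adjusted p = 2.73e-08), 1.999-fold at 3 hpi and 1.87-fold at 18 hpi, and stood at -0.22 ± 0.05 at 120 hpi (adjusted p = 0.000718, not called). The Mitf calls at 1 and 6 hpi were close to the threshold: without R35A replicate 1 of 1 hpi the value was 0.49, and without WT replicate 1 of 6 hpi it was 0.55, down from 0.63.

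**Figure D2:**
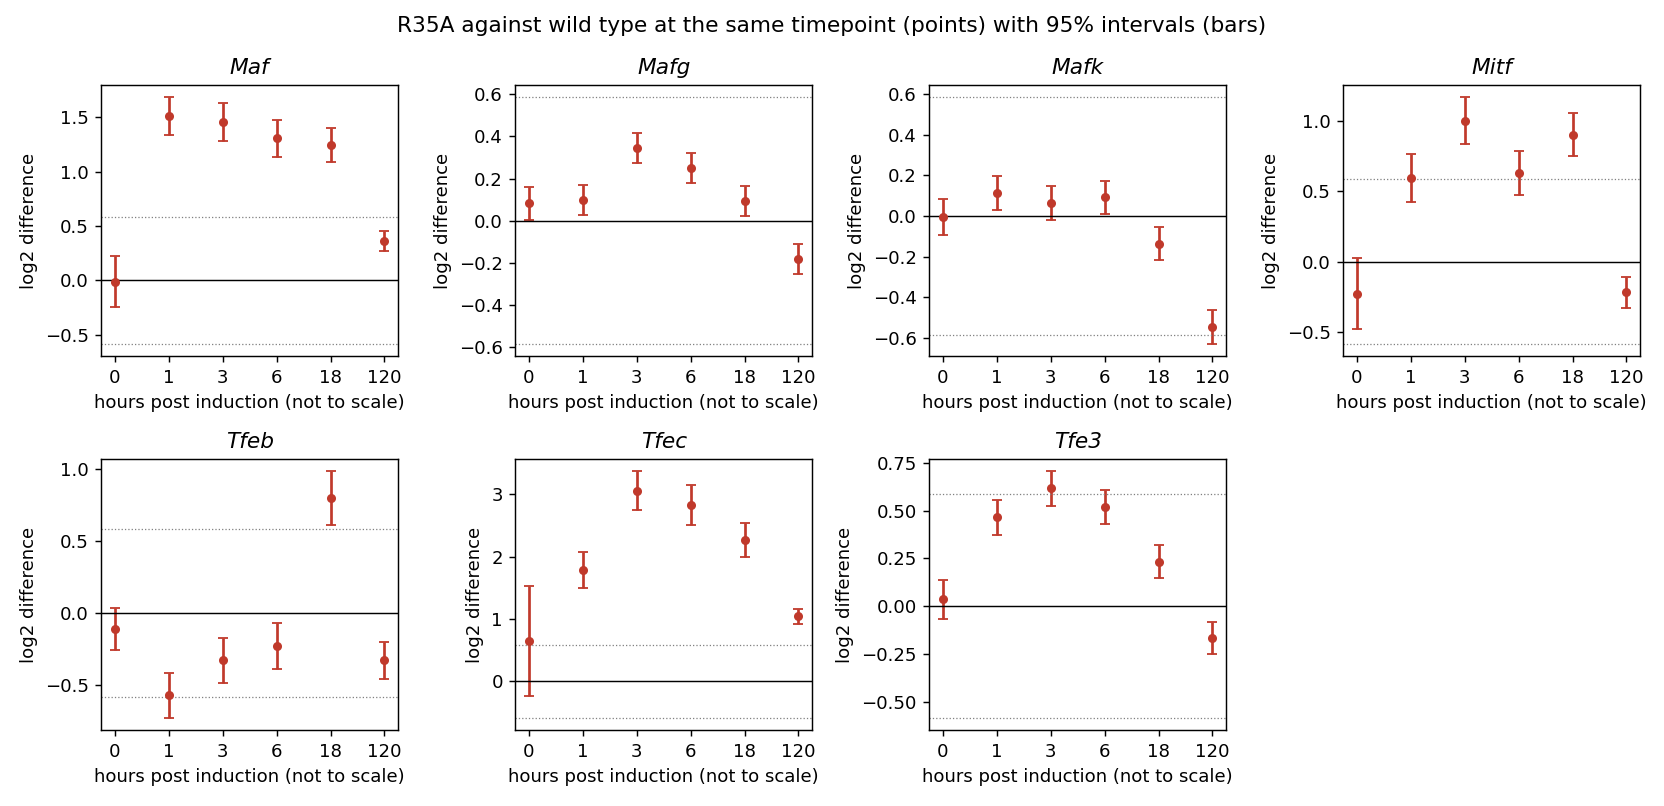
Log2 difference between R35A and WT at the same timepoint for each gene, with 95% intervals as bars and the 1.5-fold limit as dotted lines; each panel has its own vertical axis, and hours are not to scale. Maf and Tfec sit above the limit from 1 to 18 hpi, Mitf sits at 0.59 to 1.00 there, Tfeb changes sign between 6 and 18 hpi, and Mafk falls to -0.55 at 120 hpi.

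Tfeb differed in both directions between R35A and WT. At 1 hpi it was lower with R35A, at -0.57 ± 0.08 on the log2 scale (edgeR adjusted p = 1.36e-08, n = 2 per group, not called), and at 18 hpi it was 1.74-fold higher (0.80 ± 0.09, adjusted p = 5.22e-10), where WT had its trough. Tfe3 was 1.53-fold higher with R35A at 3 hpi (0.62 ± 0.05, adjusted p = 7.39e-17) and stood at 0.46 ± 0.05 at 1 hpi and 0.52 ± 0.04 at 6 hpi, below the call. Neither small MAF was called at any timepoint. Mafg was between -0.18 and 0.35, and the largest difference of Mafk was -0.55 ± 0.04 at 120 hpi (adjusted p = 5.19e-16, 1.46-fold lower with R35A), which passed the fold without R35A replicate 1 of 120 hpi (-0.59). At 1 hpi the B cell markers summed to 1695 to 1697 CPM with WT and 513 to 519 CPM with R35A, at 18 hpi the fibroblast markers summed to 5084 to 5177 and 3631 to 3633 CPM, and at 120 hpi to 179 to 209 and 619 to 635 CPM, and the part of these differences in the results was not tested.

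Taking the change from each construct's own 0 hpi libraries, R35A minus WT, 2 members were called after 1 hour (14.03% of all genes), 3 after 3 hours (12.96%), 3 after 6 hours (10.3%), 4 after 18 hours (8.36%) and 0 after 120 hours (14.5%). At 120 hpi edgeR gave 5 members at an unadjusted p under 0.05, and 0 of them past the fold. They were Mafk at -0.54 ± 0.06 (edgeR adjusted p = 2.84e-10), Mafg at -0.26 ± 0.05 (edgeR adjusted p = 5.79e-05), Tfeb at -0.21, Tfe3 at -0.20 and Maf at 0.37. Through the few counts of Tfec at 0 hpi its difference in change was less certain than its difference in level, at 1.145 ± 0.50 at 1 hpi (edgeR adjusted p = 0.0933, n = 2 per group) and 0.40 ± 0.47 at 120 hpi (adjusted p = 0.608). Maf kept 1.52 ± 0.15 at 1 hpi and 1.25 ± 0.14 at 18 hpi on this scale. Tfe3 at 3 hpi came to 0.58 ± 0.07 (adjusted p = 7.11e-10), just under the fold of a call.

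R35K was deposited in tables of its own, so its change from 0 hpi was compared with that of WT and R35A. A difference between the sets of libraries that appears only after 0 hpi would remain in this comparison and cannot be told apart from the construct. Against WT, 4 members (Maf, Mitf, Tfec and Tfe3) were called at 1 hpi (11.9% of all genes), 3 hpi (10.0%) and 6 hpi (12.2%), 4 (Maf, Mitf, Tfec and Tfeb) at 18 hpi (13.3%) and 1 (Maf) at 120 hpi (10.1%). The signed difference was above 0 in each, which is a larger rise with R35K except for Tfeb, which fell less with R35K than with WT. Maf rose 4.46-fold more with R35K at 1 hpi (difference of log2 changes 2.16 ± 0.15, edgeR adjusted p = 1.89e-17, n = 2 per group), 3.21-fold more by 18 hpi (1.68 ± 0.15) and 1.59-fold more by 120 hpi (0.67 ± 0.13, adjusted p = 5.75e-05), a call lost at 0.54 without R35K replicate 2 of 0 hpi. Mitf rose 2.61-fold more at 1 hpi (1.38 ± 0.15, adjusted p = 4.26e-11) and 3.01-fold more by 18 hpi (1.59 ± 0.15), while at 120 hpi the difference was -0.01 ± 0.14 with a 95% interval from -0.29 to 0.28. Tfec rose 10.5-fold more at 6 hpi (3.39 ± 0.55, adjusted p = 1.15e-06) and 4.77-fold more at 1 hpi (2.25 ± 0.51, adjusted p = 0.000536), the latter lost without WT replicate 1 of 0 hpi (adjusted p = 0.0835). Tfe3 rose 1.56-fold more at 1 and at 6 hpi (0.64 ± 0.07 each), and the call at 1 hpi was lost at 0.57 without the low-count filter. Its difference at 3 hpi (0.59 ± 0.07) fell below the fold with DESeq2, with its size factors, with limma, without the low-count filter and in 4 of the fits that leave out 1 library, at 0.56 to 0.58, and the call at 6 hpi was lost at 0.53 without WT replicate 1 of 6 hpi. Tfeb, which had fallen with WT, stood 2.54-fold above WT in its change at 18 hpi (1.35 ± 0.12, adjusted p = 2.15e-14). Below the fold of a call, the change at 120 hpi was lower with R35K than with WT for Mafk (-0.50 ± 0.06, edgeR adjusted p = 3.98e-09) and Tfeb (-0.46 ± 0.10, edgeR adjusted p = 0.000237). It was also lower for Mafg (-0.33 ± 0.05) and Tfe3 (-0.25 ± 0.06).

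R35K and R35A, which differ in the residue put in place of arginine, were compared next. The change with R35K minus that with R35A was called for 1 member (Maf) by 1 hpi (5.83% of all genes) and 4 (Maf, Mitf, Tfeb and Tfec) at 6 hpi (5.89%). The rises of Maf, Mitf and Tfec were larger with R35K, while Tfeb stood closer to its 0 hpi level with R35K than with R35A. At 3, 18 and 120 hpi edgeR and DESeq2 called 0 members (3.02%, 3.44% and 1.61% of all genes with edgeR), with 4, 6 and 2 members at an unadjusted p under 0.05 in edgeR, of which 0, 1 and 0 were past the fold. Limma on the deposited log2 values called Tfec at 18 hpi (0.86, limma adjusted p = 0.00569) and at 1 hpi (0.97, limma adjusted p = 0.00121). At 1 hpi Mitf passed the fold at 0.64 without R35A replicate 1 of 1 hpi, and Tfeb at 0.59 without R35A replicate 2 of 0 hpi. Maf differed by 0.59 ± 0.14 at 1 hpi (edgeR adjusted p = 0.000722, n = 2 per group), on the edge of the call, which was lost at 0.46 to 0.55 with DESeq2, its size factors, limma, no filter, only the groups compared and in 4 of the fits that leave out 1 library, and by 0.80 ± 0.14 at 6 hpi (adjusted p = 5.52e-06). Mitf differed by 0.68 ± 0.14 at 6 hpi (adjusted p = 0.000206). Tfeb differed by 0.62 ± 0.11 there (adjusted p = 6.55e-06), a call lost at 0.55 to 0.57 under several alternatives. Tfec differed by 1.21 ± 0.39 (adjusted p = 0.0272), which was lost without R35A replicate 2 of 0 hpi (adjusted p = 0.299), without R35K replicate 1 of 0 hpi (0.140) and without the low-count filter (0.0809). For Mafg and Tfe3 at 3 hpi the 95% intervals of the difference ran from -0.13 to 0.08 and from -0.15 to 0.11, and for Mitf at 120 hpi from -0.28 to 0.26.

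**Figure D3:**
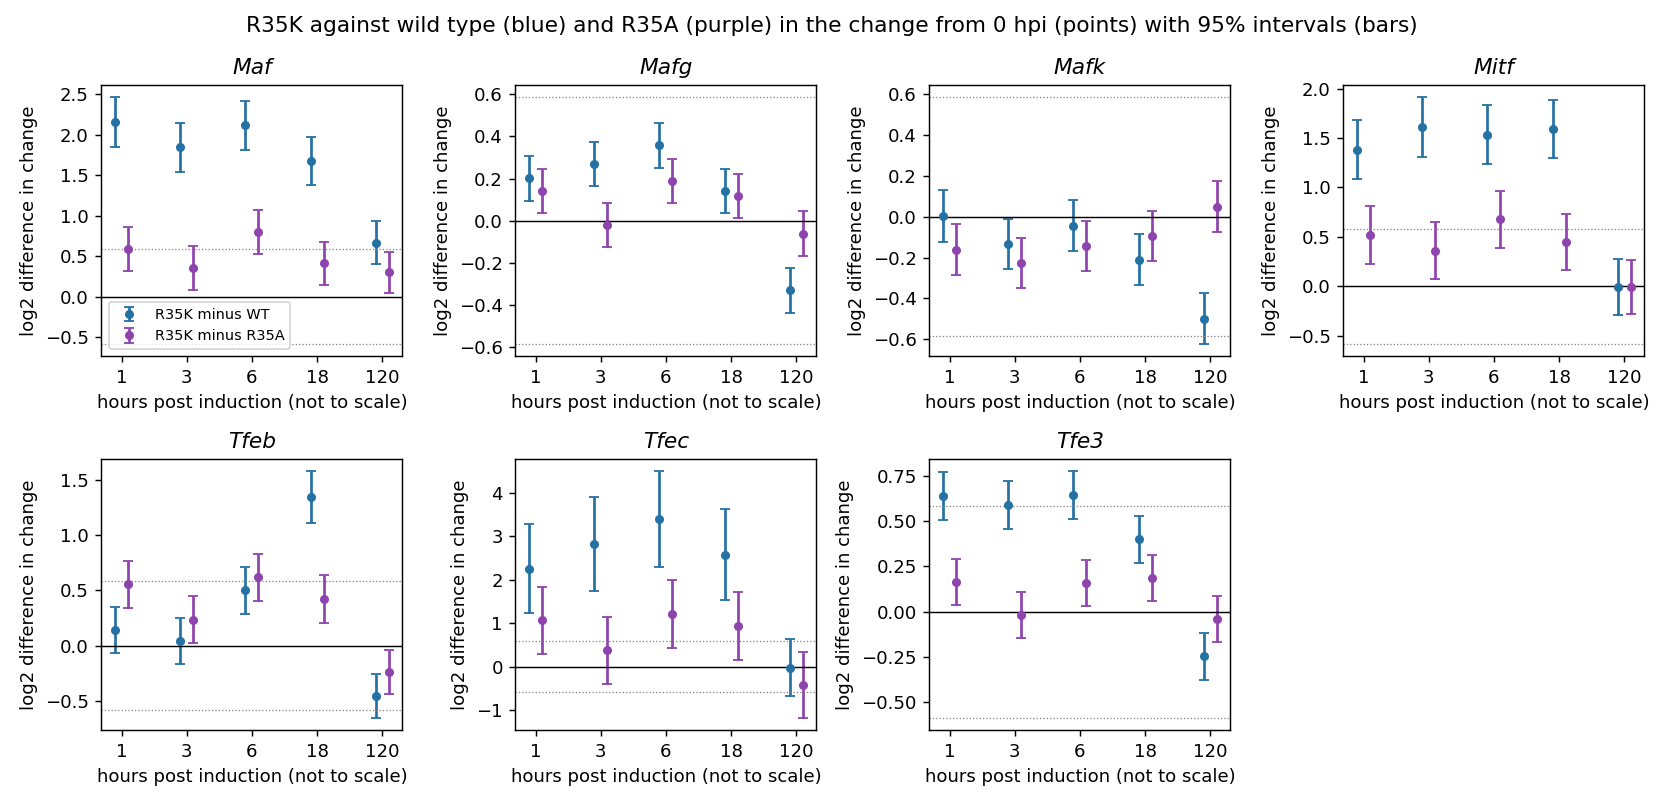
Difference between R35K and WT (blue) and between R35K and R35A (purple) in the log2 change from 0 hpi for each gene, with 95% intervals as bars and the 1.5-fold limit as dotted lines; each panel has its own vertical axis, and hours are not to scale. Maf, Mitf and Tfec lie above the limit against WT from 1 to 18 hpi and are lower at 120 hpi. There Maf stands at 0.67, still above the limit, Mitf at -0.01 and Tfec at -0.02.

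The last step, from 18 to 120 hpi, held the largest part of the rise of Maf, Mitf and Tfec with WT. The step was called up for 5 members with WT (60.5% of all genes), 4 with R35A (53.9%) and 4 with R35K (53.3%), and the members called with both mutants were Maf, Mitf, Tfeb and Tfec. Tfec rose 23.3-fold with WT (log2 4.54 ± 0.11, edgeR adjusted p = 3.00e-38, n = 2), 9.98-fold with R35A and 4.05-fold with R35K. Maf rose 12.9-fold, 6.98-fold and 6.70-fold, Mitf 6.56-fold, 3.02-fold and 2.28-fold, and Tfeb 6.43-fold, 2.95-fold and 1.93-fold, in the same order of constructs. Tfe3 was called with WT alone (1.78-fold, 0.84 ± 0.04), and with R35A it stood at 0.44 ± 0.04 and with R35K at 0.26 ± 0.04. Mafg was at 0.47 ± 0.04 with WT, and at 0.59 to 0.60 under some alternatives. The differences between constructs in this step were not tested.

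Over the 18 groups each gene had its own order of levels. The lowest groups of Maf, Mafg, Mafk, Mitf, Tfec and Tfe3 were the 3 groups of 0 hpi, and the lowest of Tfeb was WT at 18 hpi. The highest group was WT at 120 hpi for Mafg, Mafk, Mitf, Tfeb and Tfe3, R35K at 120 hpi for Maf and R35A at 120 hpi for Tfec. Of the 17 pairs of neighbours in each order, the replicates overlapped in 7 for Maf, 8 for Mafg, 12 for Mafk, 2 for Mitf, 7 for Tfeb, 5 for Tfec and 6 for Tfe3, so Mitf was the most and Mafk the least clearly ordered. Compared per kilobase of exon, at 0 hpi with WT the small MAFs led, with Mafk at 24.5 and Mafg at 21.7 CPM per kilobase, followed by Tfeb at 6.60 and Tfe3 at 6.25, Maf at 1.28 and Mitf at 1.27, and Tfec at 0.0809. At 120 hpi with WT, Mafg stood at 52.2 and Mafk at 51.9 CPM per kilobase, Maf at 29.4, Mitf at 20.6, Tfe3 at 19.1, Tfeb at 15.3 and Tfec at 12.7. At 120 hpi with R35K, Maf, at 45.0 CPM per kilobase, was level with Mafg at 43.3, and with R35A Tfec reached 26.0, above Mitf at 17.6.

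As a description, the mean log2 levels of Mitf and Tfe3 over the 18 groups correlated at r = 0.980, those of Tfec and Tfe3 at 0.977 and those of Mitf and Tfec at 0.974. Tfeb followed the other members least, with r = 0.225 to Mafk and 0.300 to Mafg. The groups share constructs and the 0 hpi state, so they are not independent points. Among 17277 genes, those most like Maf over the 18 groups were Ms4a6b, Pid1 and Il10rb (each r = 0.995), and those most like Mafg were Cd300lb (0.987), Clec4e and Tyrobp (0.986 each). Kdm6b (0.935) and Gnb1 (0.930) were among the 3 genes most like Mafk, and Mitf was most like Itgb2 and Arrb1 (0.995 each) and the lysosome gene Psap (0.994). Tfeb was most like Madd (0.982), Atp1b3 and Ipmk (0.978 each), Tfec like Ctss, Cmklr1 and Stab1 (each 0.994), and Tfe3 like Gla (0.997), which encodes a lysosomal galactosidase, 5031439G07Rik (0.993) and Rasa4 (0.992).

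Partners and relatives of the MAF proteins moved in both directions. Of 11 listed genes 10 were tested, and with WT at 120 hpi 5 were up (among them Nfe2 and Nfe2l2) and 3 down (Mafa, Bach2 and Nfe2l3), which is 80% of the list against 63.3% of all genes called, with a median log2 change of 0.72 against -0.36 over all genes. Bach2, a repressor that pairs with small MAFs and maintains B cells, fell from 305 ± 0.250 CPM at 0 hpi to 74.3 ± 2.24 at 1 hpi with WT, 30.4 ± 0.0135 with R35A and 59.0 ± 3.29 with R35K, and to 5.40 ± 0.743 at 120 hpi with WT (SD, n = 2). Nfe2, the NF-E2 subunit that pairs with small MAFs, rose at once: at 1 hpi it was at 6.32 ± 0.913 CPM with WT, 3.14 ± 0.183 with R35A and 3.13 ± 0.392 with R35K, having started at 0.559 ± 0.0150 with WT. It was lower with R35A at 1 hpi by -1.04 ± 0.17 on the log2 scale (edgeR adjusted p = 6.99e-07).

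Genes tied to c-MAF in macrophages rose during BMT. Of 11 listed genes 10 were tested, 8 of them were up at 1 hpi (80% against 19.9% of all genes called) and all 10 at 120 hpi (against 63.3%) with WT, and the median log2 change at 120 hpi was 8.74, or 7.88 with 4 genes that had 3 or fewer counts per library at 0 hpi set to that bound. These 4 genes passed the low-count filter through other groups, so against 0 hpi they could hardly be called down. The counts of rises against 0 hpi are therefore a description only. F13a1, coagulation factor XIII, rose from 3.87 ± 0.637 CPM to 7639 ± 36.2 with WT, and Mrc1, a mannose receptor, from 2.07 ± 0.698 to 2688 ± 69.7 (SD, n = 2). Folr2, a folate receptor, had 0 counts at 0 hpi with WT and reached 21.6 ± 4.47 CPM at 120 hpi, which is at least 103-fold higher (floor of 3 counts per library). Between R35A and WT at 1 hpi 6 of the 10 were higher with R35A (60% against 19.3% of all genes called), with F13a1 at 237 ± 1.78 CPM against 18.0 ± 1.08. C1qc is among the signature genes used by the study, so this list too is not independent of it.

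Most lysosome genes of the CLEAR network rose during BMT, and more of them were up at 1 hpi with the mutants than with WT. All 26 were tested. With WT 4 were up at 1 hpi (Psap, Ctsb and Ctsd among them) and 0 down, which is 15.4% of the list against 19.9% of all genes called. The shares of all genes in this paragraph count both directions. With WT at 1 hpi, 1814 of the 16988 genes tested were up and 1574 down. With WT 17 were up at 18 hpi (65.4% against 47.1%) and 20 at 120 hpi, where 22 of the 26 (84.6% against 63.3%) were called in either direction. There Sqstm1 (-0.64), a receptor for autophagy cargo, and Wipi1 (-1.52), an early autophagy protein, fell, and the median log2 change at 120 hpi was 1.09 against -0.36 over all genes. At 1 hpi 11 were up with R35A (42.3% against 37.3% of all genes) and 20 with R35K (76.9% against 32.9%). Among all genes 3110 were up and 3219 down with R35A there, and 2548 up and 2866 down with R35K. Psap, the precursor of the saposins, stood at 872 ± 13.5 CPM at 0 hpi with WT, at 1603 ± 22.6, 3191 ± 46.1 and 4771 ± 49.4 at 1 hpi with WT, R35A and R35K, and at 20182 ± 744 with WT at 120 hpi (SD, n = 2). Ctsb, a cathepsin, stood at 764 ± 16.5, then at 1384 ± 0.278, 2755 ± 13.9 and 4399 ± 47.2, and at 9562 ± 224 CPM. Hexa, a hexosaminidase subunit, stood at 83.0 ± 1.73, then at 121 ± 1.151, 217 ± 1.22 and 338 ± 1.53, and at 832 ± 10.3 CPM. Between R35A and WT 7 of the 26 were higher with R35A at 1 hpi (26.9% against 19.3% of all genes called, 1445 of them higher and 1840 lower), with a median log2 difference of 0.39 against -0.01 over all genes, and 3 at 120 hpi (Ctsd, Sgsh and Wipi1, 11.5% against 18.8%). In their change from 0 to 1 hpi 14 of the 26 rose more with R35K than with WT (53.8% against 11.9% of all genes called). Feeder fibroblasts also have lysosomes, and the part of their RNA in these values was not tested.

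**Figure D4:**
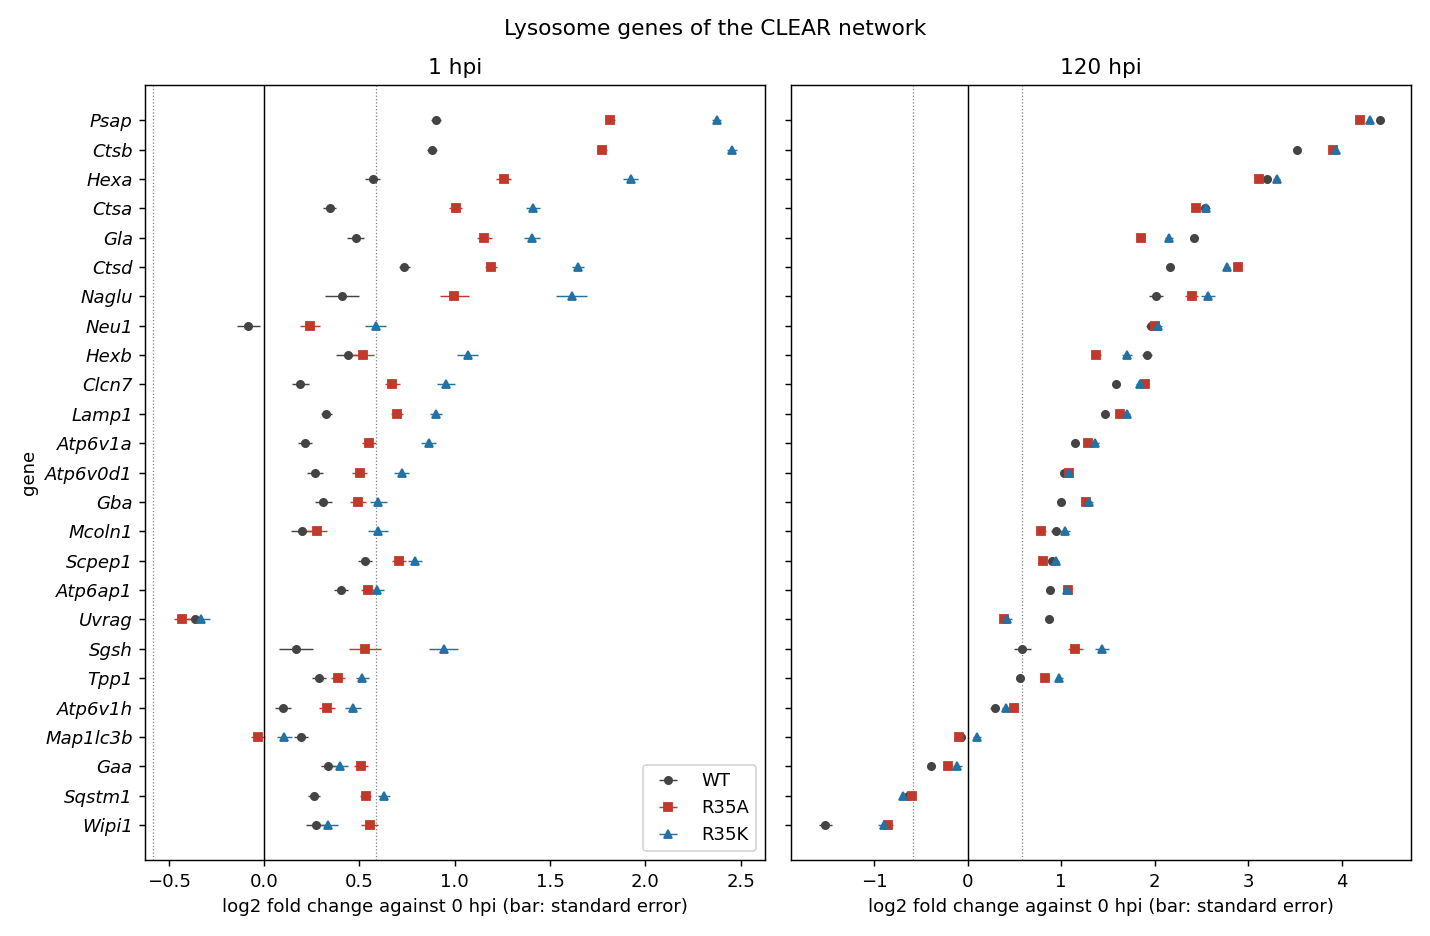
Log2 fold change against 0 hpi at 1 hpi (left) and 120 hpi (right) of 25 of the 26 lysosome genes of the CLEAR network with WT (grey circles), R35A (red squares) and R35K (blue triangles); bars are standard errors, dotted lines the 1.5-fold limit, and genes are sorted by the WT change at 120 hpi. At 1 hpi the order WT, R35A, R35K holds for Psap, Ctsb, Hexa and most genes of the upper part of the list, and at 120 hpi the 3 constructs lie close together for most genes, with Sqstm1 and Wipi1 the lowest.

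Genes known to respond to Mitf and its relatives in macrophages and osteoclasts were mixed, and Clcn7 among them is also in the list of lysosome genes above. Of 8 genes 5 were up with WT at 120 hpi, and Ctsk and Oscar, which belong to bone-resorbing osteoclasts, were down (87.5% called against 63.3% of all genes). Oscar reached at most 0.742 CPM in any group, and Ctsk fell while the fibroblast markers, too, were far lower at 120 hpi than at 0 hpi, and their part in this was not tested. Gpnmb, a membrane glycoprotein, rose from 105 ± 0.749 CPM at 0 hpi with WT to 330 ± 3.66, 1293 ± 12.4 and 2547 ± 27.0 at 1 hpi with WT, R35A and R35K, and to 2309 ± 63.8 at 120 hpi with WT (SD, n = 2), so R35K at 1 hpi was above WT at 120 hpi. Atp6v0d2, a subunit of the proton pump, went from 0.873 ± 0.0260 CPM to 6.25 ± 0.0841, 10.7 ± 0.785 and 24.2 ± 1.53, and to 33.7 ± 0.230. Csf3r, the G-CSF receptor and also a signature gene of the study, fell with WT at 1 hpi, from 0.977 ± 0.0726 to 0.402 ± 0.0821 CPM (log2 -1.26 ± 0.41, edgeR adjusted p = 0.0138), at which point R35A held 6.16 ± 0.436 and R35K 7.69 ± 0.345 CPM, and reached 166 ± 4.49 CPM with WT at 120 hpi. The WT libraries of 0 hpi held at most 15 counts of Csf3r, so its fall rests on few reads.

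Of 18 genes for the nutrient control of MiT/TFE proteins, 8 were up and 5 down with WT at 120 hpi (72.2% called against 63.3% of all genes), with a median log2 change of 0.47 against -0.36 over all genes. The 5 Lamtor genes of the lysosomal scaffold for mTORC1 were among those up, and Mtor and Rptor among those down. Rragd, a Rag GTPase, fell from 46.9 ± 2.59 CPM at 0 hpi to 9.76 ± 0.925 at 120 hpi with WT, with 20.4 ± 0.799 with R35A and 25.6 ± 1.60 with R35K at 120 hpi (SD, n = 2), and Rragb went from 5.12 ± 1.13 to 1.56 ± 0.0858 CPM with WT. Fnip2, a partner of folliculin, rose from 65.9 ± 0.485 CPM to 126 ± 2.501, 334 ± 2.43 and 313 ± 4.46 at 1 hpi with WT, R35A and R35K. It was 2.58-fold higher with R35A than WT at 1 hpi (log2 1.37 ± 0.04, edgeR adjusted p = 1.15e-34).

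Antioxidant genes that small MAFs control with NRF2 were up early and parted at 120 hpi. Of 12 genes 8 were up with WT at 1 hpi (66.7% against 19.9% of all genes called) and 12 at 18 hpi (against 47.1%), and at 120 hpi 4 were up and 5 down (75% against 63.3%). Nqo1, a quinone reductase, went from 51.8 ± 0.305 CPM at 0 hpi to 66.1 ± 0.409 at 1 hpi and 2.16 ± 0.0766 at 120 hpi with WT (SD, n = 2), and Me1, the malic enzyme, from 33.5 ± 0.483 to 46.0 ± 2.15 and 3.44 ± 0.00600. Fth1, the ferritin heavy chain, rose instead, from 699.7 ± 34.995 to 1431 ± 5.14 and 4715 ± 319 CPM, and it was the one gene of the list called between R35A and WT at 1 hpi (1.79-fold, log2 0.84 ± 0.03, edgeR adjusted p = 6.24e-28). The fibroblast markers were highest with WT at 18 hpi, when all 12 genes were up, and fell by 120 hpi, and their part in this course was not tested.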

How the data were processed

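Per the labels and the study's methods, the authors sequenced stranded mRNA libraries as single-end reads on a HiSeq2500, aligned them to mm10 with STAR 2.5.0a and deposited its read counts per gene, in 1 table for WT and R35A and 1 for R35K. They also deposited log2 values of counts normalised with DESeq2 1.14.1 for 19067 genes; these log2 values were recovered from the counts (100% within 1e-06) and served for an alternative test. The strand setting and annotation release are not given in the sources used here.

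Counts were tested with edgeR 4.0.16 (R 4.3.3) by the quasi-likelihood method after filterByExpr and TMM scaling, in fits of 24 libraries (16988 genes), 12 libraries (16434) and, for R35K differences in change, 36 libraries (17277). P-values were adjusted by the Benjamini-Hochberg method over all genes tested. The scripts were tested on simulated data. The alternatives used DESeq2 1.42.0, limma 3.58.1, other filters, scaling and thresholds, and fits without 1 library. The members and gene lists were chosen with earlier results of these data known. All 7 members are named; from each list the 3 genes called at 120 hpi with WT with the largest change and no overlap of replicates; and per member the 3 genes with the highest correlation of mean log2 CPM. The replicate numbers showed no common pairing over all groups (median correlation -0.0042 over 153 pairs, 12 above 0.1, range -0.44 to 0.27). A median over all groups cannot exclude pairing within a construct. Exon lengths and positions come from GENCODE vM21, in which 97.07% of the gene symbols were found. With 2 replicates a group, the edgeR p-values rest on a spread estimated over all groups of a fit and moderated across genes. That spread is the one between these samples, whose separate cultures or animals the labels do not describe. The SE printed with a log2 change was derived from the same test, as the size of the change over the square root of its F statistic. A few genes of the lists are not reported here.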

Additional observations from a re-analysis of the deposited data

Results flagged for a closer look

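The change from 0 hpi was called different between constructs for 5 of the 7 members, in 34 tests of the difference itself (edgeR quasi-likelihood test with Benjamini-Hochberg adjustment, n = 2 per group, largest adjusted p = 0.0272). The signed log2 change was higher for the mutant, or for R35K against R35A, in each of these calls. Differences the other way stayed below the fold of a call. At 120 hpi Mafk stood at -0.54 for R35A minus WT and -0.50 for R35K minus WT (edgeR adjusted p = 2.84e-10 and 3.98e-09). Mafg stood at -0.26 and -0.33 there (edgeR adjusted p = 5.79e-05 and 1.35e-06). Every member was tested at every later timepoint for R35A minus WT, R35K minus WT and R35K minus R35A. These comparisons called between 1.61% and 14.5% of all genes. Over all genes the calls leaned up in most comparisons (1539 up and 764 down for R35K minus WT at 18 hpi). They leaned down in others (899 up and 1485 down for R35A minus WT at 1 hpi). The tests share 0 hpi libraries, so they are not separate findings, and 2 replicates per group allow no check for a sample that stands apart from its group.

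Maf gave 11 of the differences in log2 change. R35A exceeded WT by 1.52 after 1 hour, 1.46 after 3, 1.31 after 6 and 1.25 after 18 hours. R35K exceeded WT by 2.16, 1.84, 2.12 and 1.68 at those timepoints and by 0.67 after 120 hours, and exceeded R35A by 0.59 after 1 hour and 0.80 after 6 hours. Mitf gave 9, at 0.82, 1.23, 0.85 and 1.13 for R35A against WT and 1.38, 1.61, 1.53 and 1.59 for R35K against WT after 1, 3, 6 and 18 hours, and 0.68 for R35K against R35A after 6 hours.

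Tfec gave 8, at 2.41, 2.18 and 1.62 for R35A against WT after 3, 6 and 18 hours, at 2.25, 2.81, 3.39 and 2.57 for R35K against WT after 1, 3, 6 and 18 hours, and at 1.21 for R35K against R35A after 6 hours. Its 0 hpi counts of 5 to 15 enter each of these. Tfe3 gave 3, at 0.64, 0.59 and 0.64 for R35K against WT after 1, 3 and 6 hours. Tfeb gave 3, at 0.91 for R35A and 1.35 for R35K against WT after 18 hours, where the WT level was at its lowest, and 0.62 for R35K against R35A after 6 hours, and in these 3 the fall was smaller for the construct named first.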

How the results depend on the processing

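Each member's value in each of 34 comparisons (238 in all) was recomputed under every alternative it allows, and no value that was called changed sign. Of the calls, 20 with WT, 28 with R35A, 26 with R35K, 15 for R35A against WT, 17 for R35K minus WT, 5 for R35K minus R35A and 13 for 120 against 18 hpi, a 2-fold threshold left 13 with WT, 16 with R35A, 17 with R35K, 9 for R35A against WT, 13 for R35K minus WT, 1 for R35K minus R35A and 11 for 120 against 18 hpi. The 5 calls of R35K minus R35A became 3 with the DESeq2 Wald test, 3 with DESeq2 size factors in edgeR, 2 without the low-count filter and 3 with only the groups compared. The cause was not tested. Limma on the deposited log2 values changed the side of 10 of 238 values (5 lost, 5 gained). Without 1 library, the counts ran from 28 to 29 with R35A, 14 to 16 for R35A against WT, 16 to 17 for R35K minus WT, 4 to 6 for R35K minus R35A and 13 to 14 for 120 against 18 hpi, and stayed at 20 with WT and 26 with R35K; 16 of 1232 values were lost and 12 gained.

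The fit with a replicate block changed 0 of 238 calls, with counts of 20, 28, 26, 15, 17, 5 and 13 as without it. Size factors in place of TMM moved the median of all genes by 0.12 with WT at 18 hpi and by 0.15, 0.12 and 0.13 with WT, R35A and R35K at 120 hpi (log2), and by -0.10 for R35K minus WT at 18 hpi. They moved 37 of 126 group levels of the members by more than 1 SD, by 6.83% at most. Depth limits Tfec most, with 5 to 15 counts per library at 0 hpi, and 2 replicates per group limit every estimate of spread.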
